A study of Arabidopsis thaliana with 5 samples.

Results

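THESEUS1 (THE1) and 5 related receptor kinase genes, AT5G24010, AT5G59700, AT2G23200, AT5G39020 and AT5G39030, were followed in roots of Arabidopsis thaliana with Affymetrix ATH1 arrays. They were taken as the probe sets whose single gene in the platform annotation is one of these 6 loci, and each locus had 1 probe set. They are 6 of the 13355 genes that the annotation names singly, and were chosen on their signal difference between sorted protoplasts and whole roots, which was known beforehand, so that difference is described here, with fitted values and their errors but without a test. The sorted protoplast group held 3 samples of whole-root cells made into protoplasts, that is freed from their walls, and then run through a cell sorter (RNA of about 50000 cells a sample). The whole-root group held 2 samples of intact roots, labelled from 1 µg of total RNA each. Both groups were ecotype Columbia, with no mutation or transgene named in the labels. Seedlings of both had 5 days on plates at pH 5.7 and then 24 h at pH 4.6, so every sample was at low pH and no comparison of pH is possible. The comparison shows how far these transcripts differ between wall-free sorted cells and the intact organ.

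The genes belong to the CrRLK1L family, named after a kinase of Catharanthus roseus. Its members carry malectin-like domains outside the cell, a single membrane span and a kinase domain inside. THE1 was found because its loss restores growth to cellulose-deficient seedlings without restoring their cellulose, and it is regarded as a sensor of wall integrity. FERONIA (FER), the best-known relative, binds small secreted RALF peptides together with LLG co-receptors, and wall-bound LRX proteins bind RALF peptides as well. Other relatives, ANX1, ANX2, BUPS1 and BUPS2, act in pollen tubes.

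Values are MAS5 signals, in linear array units, with each array scaled by the authors to 1 common mean. Signals of sorted replicate 1 correlated less with the other sorted arrays (r = 0.954 and 0.956 across tested probe sets) than those did with each other (0.987), so results that rest on it are given without it too. The r between a sorted and a whole-root array lay between 0.671 and 0.696. Control probe sets read from both ends of a transcript differed between the groups: for actin the signal near the 3′ end over that near the 5′ end was 19.8 to 29.3 on the sorted arrays and 3.08 to 3.29 on the whole-root arrays, and for GAPDH it was 5.22 to 9.18 and 0.788 to 0.969 on the same arrays. Among root markers, the annotation named 5 of 18, and no marker's groups overlapped. Such separation was common: 42.7% of all tested probe sets were higher in all sorted samples and 33.1% lower in all of them. Higher in sorted protoplasts were the stele gene LHW (775 to 1187 units, against 342 to 403 in whole roots), the meristem gene ACR4 (71.8 to 88.9, against 15.8 to 20.8) and the endodermis gene GSO1 (506 to 1173, against 389 to 454). Lower in sorted protoplasts were the cortex gene CO2 (30.0 to 38.5 units, against 67.4 to 85.2 in whole roots) and the root hair gene EXPA7 (23.3 to 66.1, against 67.7 to 69.3). The test left out probe sets of low mean log2 signal (a bound of 43.3 units). ACR4 in whole roots and CO2 in sorted protoplasts had means below that bound, so each entered the test through its other group alone. The markers are therefore not weighed against the shares above. Neither GSO1 (limma adjusted p = 0.133) nor EXPA7 (limma adjusted p = 0.140) passed at 0.05. For GSO1, sorted replicate 1 alone was at 1173 units, and sorted replicates 2 and 3 were at 506 and 507, nearer to the whole roots. Of 5 green-tissue markers 3 were named, RCA, LHCB4.1 and PSBY, and their summed signal was 111 to 133 in sorted protoplasts and 1045 to 1256 in whole roots. The 1 named pollen marker was at 1.85 to 7.32 units in sorted protoplasts and 1.20 to 2.37 units in whole roots. How far RNA ends, green cells or sample handling enter the differences below was not tested, and preparation and RNA input cannot be told apart from the group.

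THE1 was the member with the highest signal difference in favour of the wall-free cells. Its signal was 1160, 997 and 1044 in the sorted replicates, against 222 and 180 in the whole-root replicates. The groups did not overlap, and every sorted sample lay above both whole-root samples, as at 42.7% of all tested probe sets. Sorted protoplasts averaged 1067 ± 83.9 (SD, n = 3) and whole roots 201 ± 29.8 (SD, n = 2). The fitted log2 fold change, sorted protoplasts minus whole roots, was 2.41 (SE 0.16), or 5.32-fold. Over the 6 ways to pair 1 sorted with 1 whole-root array, the log2 difference ran from 2.17 to 2.69. Only 1.59% of 13647 tested probe sets had a higher fold change than THE1. In bulk samples, a different share of cells that express a gene and a different amount of its RNA per cell cannot be told apart.

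**Figure D1:**
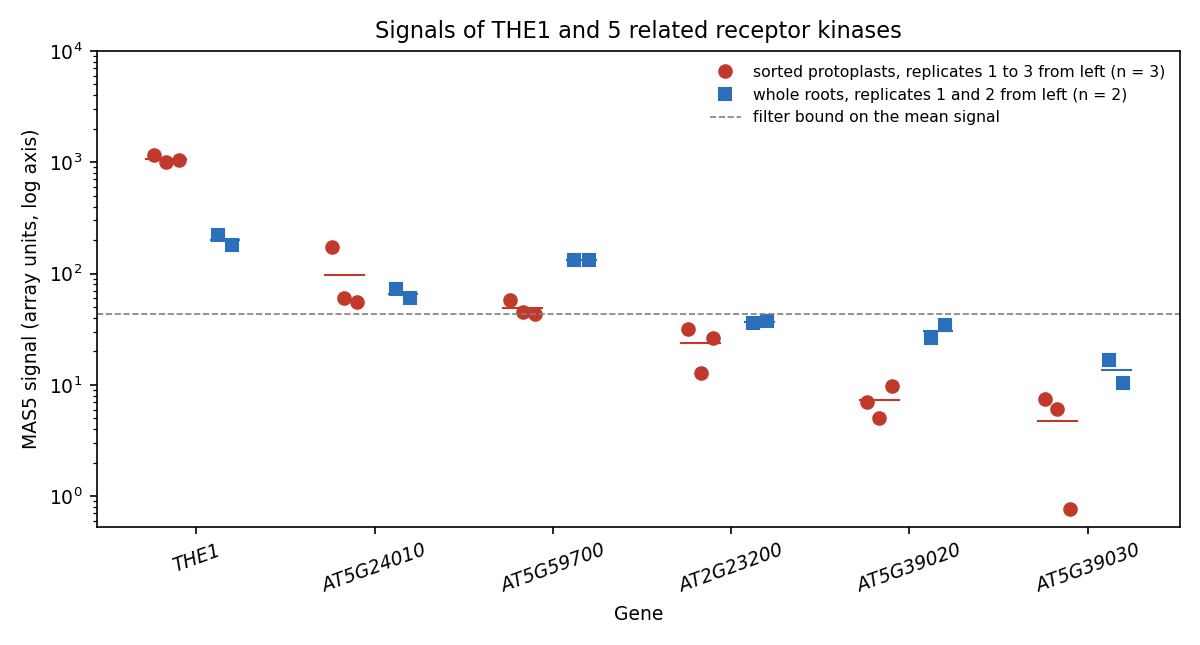
MAS5 signal (log axis) of THE1 and 5 related receptor kinases, each sorted protoplast replicate as a circle (left, n = 3) and each whole-root replicate as a square (right, n = 2), with short lines at the group means and a dashed line at the filter bound of 43.3. THE1 is higher in all sorted samples (997 to 1160, against 180 to 222), like 42.7% of all tested probe sets, and AT5G24010 overlaps. The other 4 genes are lower in all sorted samples, like 33.1% of tested probe sets and 27.6% of those under the filter. Of these genes, AT2G23200, AT5G39020 and AT5G39030 have both group means below the filter bound.

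AT5G59700, a family member without a widely used name, went the other way. Its signal was 58.3, 45.3 and 43.5 in the sorted replicates, against 132 and 133 in the whole-root replicates. All sorted samples lay below both whole-root samples, as at 33.1% of all tested probe sets. Sorted protoplasts averaged 49.0 ± 8.06 (SD, n = 3) and whole roots 132 ± 0.139 (SD, n = 2), a log2 fold change of -1.45 (SE 0.23). Sorted replicates 2 and 3 lay close to the filter bound of 43.3 units. Of all tested probe sets, 11.4% had a lower fold change.

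AT5G24010 depended on 1 array. Its signal was 174, 60.7 and 55.8 in the sorted replicates, against 72.1 and 59.8 in the whole-root replicates. The groups overlapped, and sorted replicate 1 alone was high, at 2.99 times the mean of the other sorted replicates. The log2 fold change was 0.35 (SE 0.47) with all samples and -0.18 without sorted replicate 1.

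The other 3 members were too dim for the test, which left out the 40% of probe sets with the lowest mean log2 signal (a bound of 43.3 units). AT2G23200 had 31.8, 12.9 and 26.3 units in the sorted replicates, against 36.0 and 37.7 in the whole-root replicates. AT5G39020 had 7.08, 5.09 and 9.84 units in the sorted replicates, against 26.2 and 34.7 in the whole-root replicates. AT5G39030 had 7.44, 6.13 and 0.768 units in the sorted replicates, against 16.7 and 10.3 in the whole-root replicates. Each of these genes was lower in all sorted samples than in both whole-root samples, but both group means lay below the filter bound, so no fold change is given. The table used here holds no detection calls, so it does not show whether these signals stand above background. Among the 9099 probe sets under the filter, 27.6% were likewise lower in all sorted samples, so the direction of these 3 is not particular to them.

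AT5G39020 and AT5G39030, also called MDS3 and MDS4 (MEDOS genes, linked to growth responses to metal ions), lie next to each other in the gene order of the RefSeq table of assembly TAIR10.1, with 1 small gene, AT5G39024, between them. AT5G38990 and AT5G39000, which are MDS1 and MDS2, lie close by in the same run of genes, but share 1 probe set and are therefore not described. Transcripts of such close copies can cross-hybridize on an array, which makes the dim signals of MDS3 and MDS4 uncertain as well.

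Differences between the groups were common across the array. By limma (Benjamini-Hochberg adjusted p under 0.05), 34.1% of all tested probe sets were called higher in sorted protoplasts and 26.5% lower. Over all tested probe sets the median was 0.15, and THE1 stood 2.26 above it.

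**Figure D2:**
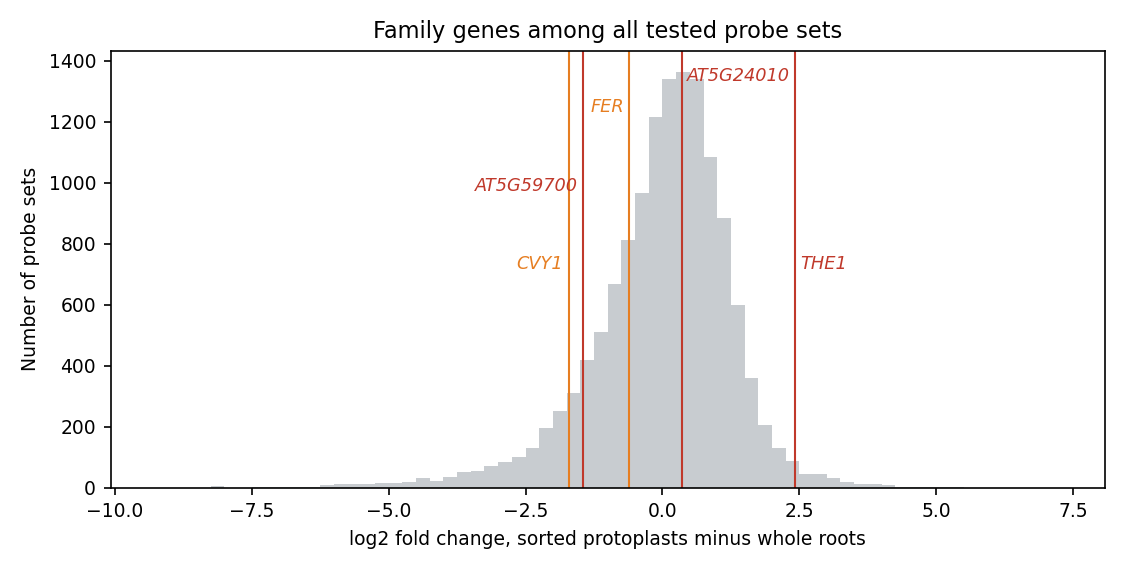
Histogram of the log2 fold change, sorted protoplasts minus whole roots, over 13647 tested probe sets (bins of 0.25), with vertical lines at the 5 tested family genes (red for the listed genes, orange for FER and CVY1). THE1 at 2.41 lies in the upper tail with 1.59% of probe sets above it, and CVY1 at -1.71 has 8.75% below it.

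Gene length (RefSeq, introns included) went with the fold change across genes, so it is given here for the members, whose genes are 2650 to 3302 bp long. When tested genes were split by length into 4 groups of like size, the median difference was -0.57 in the shortest group (median length 1367 bp) and 0.43 in the longest (4181 bp). THE1, at 3302 bp, belongs to the longest group. With a smooth trend on length removed, THE1 had a log2 fold change of 2.03, AT5G59700 one of -1.83 and AT5G24010 one of 0.02.

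Beyond the 6 genes, the list of the family held 11 further genes, of which 6 had a probe set of their own in the annotation and 2 were bright enough to be tested. Both of these were lower in sorted protoplasts (2 of 2, against 26.5% of all tested probe sets). FER, a receptor for RALF1 and RALF23 and needed for root hair growth, had 690, 970 and 896 units in the sorted replicates, against 1229 and 1334 in the whole-root replicates. Sorted replicate 1 was the lowest and the groups did not overlap. FER fell by 0.60 on the log2 scale (SE 0.18, limma adjusted p = 0.0185). It no longer passed after median centring (-0.36, adjusted p = 0.136) or when either whole-root replicate was left out (adjusted p = 0.0721 without replicate 1 and 0.121 without replicate 2). Removal of the length trend gave -0.99.

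CVY1 (CURVY1, AT2G39360), which shapes trichomes and epidermal cells, had 82.3, 41.8 and 37.4 units in the sorted replicates, against 168 and 163 in the whole-root replicates. Every sorted sample was below both whole-root samples, with sorted replicate 1 the nearest to them. CVY1 fell by 1.71 (SE 0.35, limma adjusted p = 0.0036), and the log2 fold change was -2.06 without sorted replicate 1. The fold changes of CVY1, AT5G59700 and FER thus lay on the side opposite to THE1, with that of FER the smallest in size.

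The pollen-tube receptors were close to the bottom of the scale. ANX1 read 1.06 to 1.23 units in sorted protoplasts and 1.12 and 15.8 in whole roots, and ANX2 read 7.82 to 9.78 and 3.49 and 6.95. BUPS1 read 2.23 to 8.90 units in sorted protoplasts and 4.18 and 3.81 in whole roots, and BUPS2 read 3.75 to 14.7 and 12.3 and 10.4. ANX2 was higher in all sorted samples, like 13.2% of the probe sets under the filter, the other 3 overlapped, and both group means of all 4 genes lay below the filter bound. HERK1, HERK2 and CAP1 of the same family were not analysed here, since no probe set was named for them singly.

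RALF peptides, the secreted ligands, were the pathway list with the most measured genes. Of 17 RALF genes 10 had a probe set of their own and 7 were tested, of which 6 fell, 0 rose and 1 did not pass (limma adjusted p under 0.05, against 26.5% lower and 34.1% higher over all tested probe sets). Their median difference was -1.72 on the log2 scale, against 0.15 over all tested probe sets. These genes are short (603 to 1933 bp), and with the length trend removed 3 of the 7 still passed. RALF27 entered the test through its whole-root signal alone, with a sorted mean below the filter bound. Of the 6 RALF genes with both group means above the bound 5 fell (2 with the length trend removed), with a median of -1.43, against 24.5% lower and a median of 0.16 over all probe sets of that kind.

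RALF34, described as a ligand of THE1 in lateral root formation, was the RALF gene that did not pass. It had 195, 386 and 453 units in the sorted replicates, against 413 and 487 in the whole-root replicates. Sorted replicate 1 alone was low, and the other sorted samples lay close to or within the whole-root range. The log2 fold change was -0.47 (95% interval -1.25 to 0.31, limma adjusted p = 0.256), and it was -0.10 without sorted replicate 1. The interval therefore leaves room for no change and for a more than 2-fold fall.

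Among the RALF genes that fell were RALF33 and RALF22. RALF33, which acts through FER in immune signalling, had 574, 580 and 570 units in the sorted replicates, against 1668 and 964 in the whole-root replicates, and fell by 1.14 (SE 0.22, limma adjusted p = 0.00305; the log2 fold change was -0.75 without whole-root replicate 1). RALF22, which binds LRX proteins and FER, had 241, 179 and 164 units in the sorted replicates, against 671 and 692 in the whole-root replicates. It fell by 1.83 (SE 0.20, limma adjusted p = 0.000181). Neither gene's groups overlapped. Once the length trend was removed, RALF33 did not pass (-0.43, adjusted p = 0.138).

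RALF27 was the RALF gene with the largest fall. It had 33.8, 20.3 and 28.2 units in the sorted replicates, against 303 and 235 in the whole-root replicates, a fitted log2 fold change of -3.31 (SE 0.29, limma adjusted p = 6.65e-05). All sorted values lay below the filter bound, so a gene this dim in sorted cells was tested only because it was bright in whole roots, and against that bound it was at least 6.21-fold lower. With the length trend removed the log2 fold change was -1.98. RALF32 had 1251, 624 and 677 units in the sorted replicates, against 2944 and 3296 in the whole-root replicates, and fell by 1.95 (SE 0.28, limma adjusted p = 0.000724), or by 0.84 with the length trend removed (limma adjusted p = 0.0368). RALF31 (-1.72) and RALF24 (-1.14) fell too, and both calls were lost with the length trend removed (adjusted p = 0.203 and 0.715). RALF18, RALF25 and RALF26 were below the bound in both groups.

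**Figure D3:**
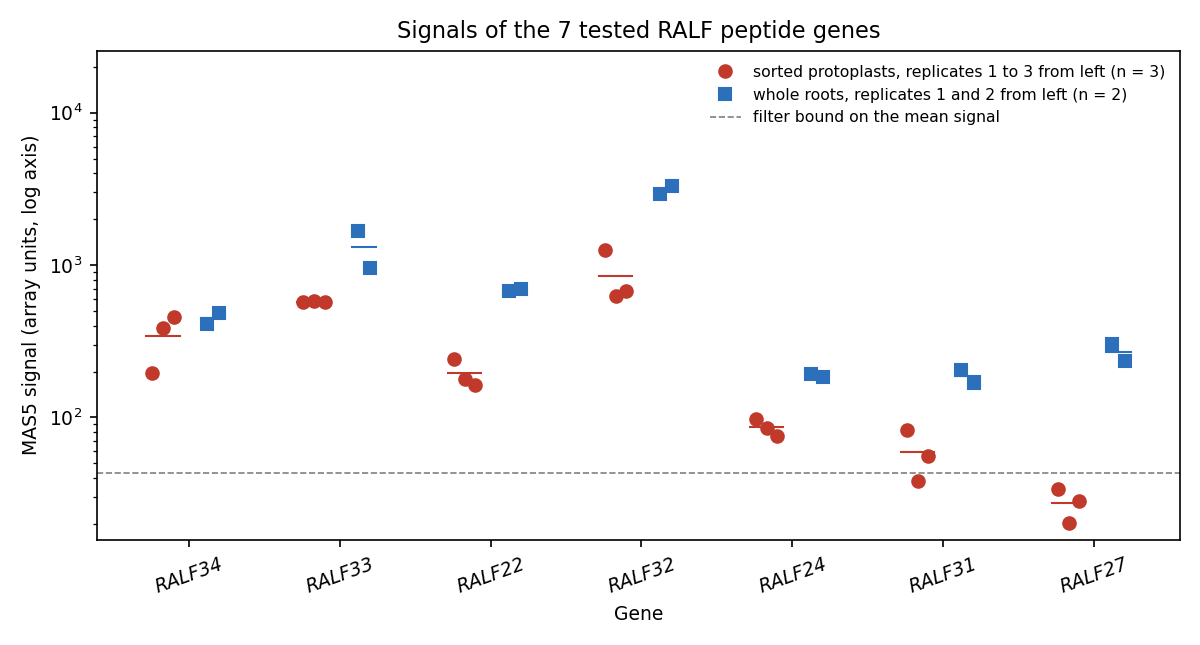
MAS5 signal (log axis) of the 7 tested RALF genes, with sorted protoplast replicates as circles (left, n = 3), whole-root replicates as squares (right, n = 2), lines at the means and the filter bound dashed. In 6 genes all sorted samples lie below both whole-root samples, and only RALF34 overlaps (195 to 453 against 413 to 487). Among all tested probe sets, 33.1% were likewise lower in all sorted samples. RALF27, among the 6, entered the test through its whole-root signal alone, so the count is not weighed against that share.

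Of the LLG co-receptors and the LRX proteins, which anchor RALF peptides in the wall, 4 of 11 genes had a probe set of their own, all of them LRX genes, and 2 were tested. Both had a sorted mean below the filter bound and entered the test through their whole-root signal, so no count is set against the background. LRX6 (AT3G22800) had 12.3, 9.24 and 12.6 units in the sorted replicates, against 498 and 351 in the whole-root replicates. The sorted signals lay far below the filter bound and the whole-root signals far above it. Its fitted log2 fold change was -5.21 (SE 0.29, limma adjusted p = 1.27e-05), lower than that of all but 0.535% of tested probe sets, and against the bound it was at least 9.79-fold lower. LRX4 (AT3G24480) had 43.4, 39.8 and 27.2 units in the sorted replicates, against 64.0 and 70.4 in the whole-root replicates, and fell by 0.90 (limma adjusted p = 0.0304). LRX4 lost its call after median centring (adjusted p = 0.0785), with quantile normalization (0.117), with no filter (0.0669), with the length trend removed (0.0924), and without sorted replicate 3 (0.0883), whole-root replicate 1 (0.0970) or whole-root replicate 2 (0.145). LRX5, with 15.1 to 22.0 units in sorted protoplasts and 58.3 and 36.7 in whole roots, and LRX7, with 1.19 to 1.50 and 2.43 and 2.68, were not tested.

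Downstream of the receptors, MARIS (MRI, AT2G41970), a cytoplasmic kinase that acts after FER and ANX receptors in tip-growing cells, was the 1 of 16 listed partners with a probe set of its own. It had 89.8, 66.5 and 121 units in the sorted replicates, against 64.4 and 34.6 in the whole-root replicates. Its groups did not overlap by a narrow margin, and the log2 fold change of 0.92 (SE 0.36) did not pass (limma adjusted p = 0.0529). It passed after median centring (adjusted p = 0.0184), with quantile normalization (0.0173), with a pseudocount of 32 (0.0492), without the mean-variance trend (0.04996), and when sorted replicate 2 (0.0328) or whole-root replicate 1 (0.0344) was left out.

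Of 17 listed receptors and channels that watch the wall by other means, 2 had a probe set of their own and neither passed. MIK2 (AT4G08850), a leucine-rich repeat kinase that takes part in responses to cellulose loss, had 569, 604 and 699 units in the sorted replicates, against 730 and 806 in the whole-root replicates. Its log2 fold change was -0.30 (95% interval -0.66 to 0.05, limma adjusted p = 0.121), and it passed with the length trend removed (-0.66, adjusted p = 0.00891). WAKL14, a wall-associated kinase-like gene, had 429, 284 and 255 units in the sorted replicates, against 341 and 400 in the whole-root replicates. The groups overlapped, with sorted replicate 1 the highest of all 5 samples, and the log2 fold change was -0.23 (95% interval -0.79 to 0.32, limma adjusted p = 0.424). Without sorted replicate 1 it was -0.46 and passed (adjusted p = 0.0188). COBRA (COB), an anchored protein needed for oriented cellulose deposition and the 1 of 12 cellulose synthesis genes with a probe set of its own, had 1055, 737 and 783 units in the sorted replicates, against 1555 and 1482 in the whole-root replicates. It fell by 0.84 (SE 0.18, limma adjusted p = 0.00469).

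**Figure D4:**
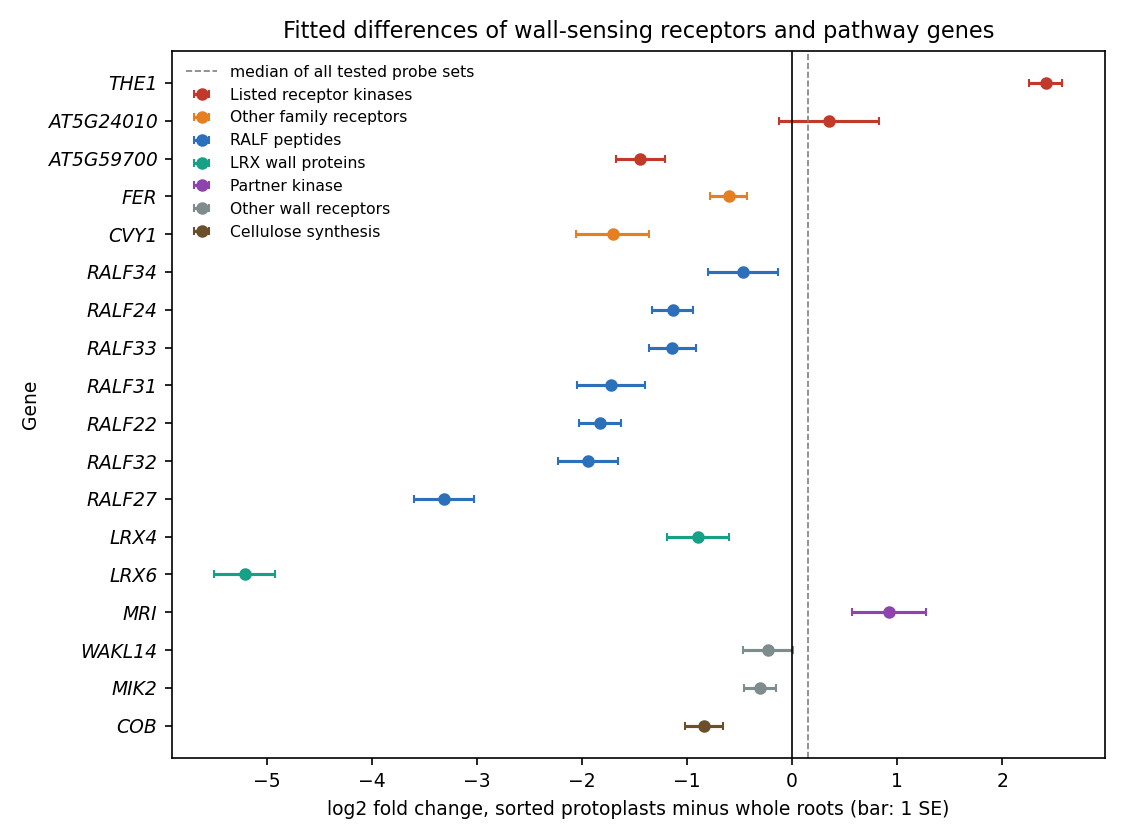
Fitted log2 fold change, sorted protoplasts minus whole roots, of the 18 tested receptor and pathway genes (3 sorted and 2 whole-root samples), coloured by group, with bars of 1 SE and a dashed line at the median of all tested probe sets (0.15). THE1 lies at 2.41, MRI at 0.92 and AT5G24010 at 0.35, and the other genes lie below 0, down to LRX6 at -5.21. RALF27, LRX4 and LRX6 entered the test through their whole-root signal alone. The genes below 0 are therefore not weighed against all tested probe sets.

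The 5 named genes whose profile over the 5 samples was most like that of THE1 were AT5G17850, AT1G10740, AT2G30150, AT5G28430 and AT4G33440. Likeness was the root mean square difference of log2 signals after each gene's mean was subtracted, over 7365 single-gene probe sets, and it ran from 0.0449 for AT5G17850 to 0.0880 for AT4G33440. AT5G17850 had 786, 658 and 657 units in the sorted replicates, against 153 and 119 in the whole-root replicates, with a log2 fold change of 2.37. None of these 5 is on a receptor or pathway list used here, and the probe set of AT5G28430 is of a kind that can match more than 1 transcript. With 5 samples in 2 groups, likeness rests mainly on the group difference.

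**Figure D5:**
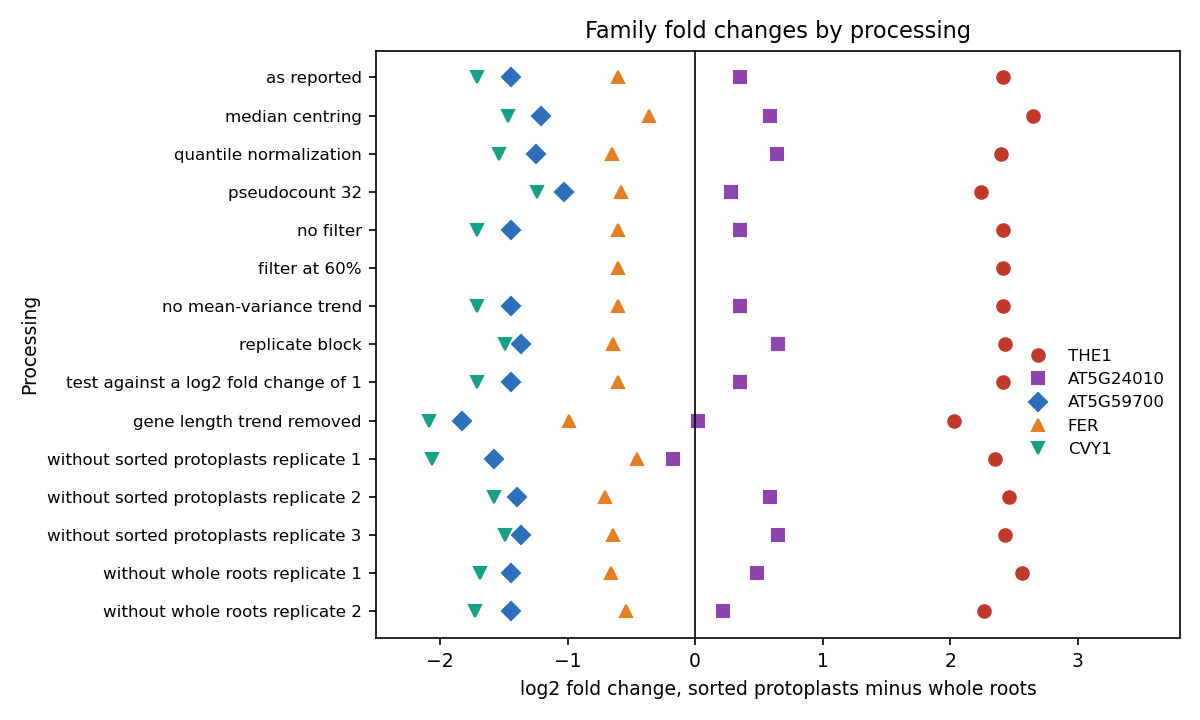
Log2 fold change, sorted protoplasts minus whole roots, of the 5 tested family genes under each processing alternative (rows). THE1 stays between 2.03 and 2.65, AT5G59700, FER and CVY1 stay below 0, and AT5G24010 moves from 0.65 to -0.18, below 0 without sorted replicate 1.

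Across the processing alternatives, THE1 kept a log2 fold change of 2.03 to 2.65 in all 14 of them. AT5G59700 lay between -1.83 and -1.03 in the 13 alternatives that kept it, CVY1 between -2.08 and -1.24 in 13, and FER between -0.99 and -0.36 in 14.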

How the data were processed

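The authors deposited linear intensity values, 1 for each probe set on each array. Per the submitters' processing notes they come from MAS5; the software version and detection calls were not given in the sources used here. The 2% trimmed mean was 250.02 on each of the 5 arrays, so the authors had scaled them to 1 target. RNA came from 3 sorted protoplast and 2 whole-root samples, and the number of arrays limits the precision. The labels do not say whether replicates were separate cultures, and p-values cover only the spread among these 5 arrays, which may be technical.

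The log2 values were used without further normalization. After 64 control probe sets and the dimmest 40% (9099 probe sets) were left out, 13647 were tested with limma 3.58.1 (R 4.3.3; lmFit, eBayes with a mean-variance trend), group as the only term, and Benjamini-Hochberg adjustment over all of them. The fit was first tested on simulated data.

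Genes were named from single-gene probe sets (13513; 503 had several genes), 13436 matched to RefSeq by gene ID and 72 by symbol. Family members and lists were chosen with earlier results of these data known. Named were the members, measured family genes, the 2 largest changes in each direction per list (or the smallest adjusted p), and the 5 profiles most like THE1; the other RALF and LRX genes, WAKL14 and the genes of the closing observations were named beyond that rule, after their values were seen. A planned list of other receptor-like kinases had 0 members, because no RefSeq name held both words. No coordinates are printed since the probe sets come without a build.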

Additional observations from a re-analysis of the deposited data

How the results depend on the processing

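As reported, limma called 4649 probe sets higher and 3623 lower. Lower calls numbered 2223 with the filter at 60%, which kept 9098 of the 13647 probe sets. Higher and lower calls numbered 735 and 1149 when tested against a fold change of 1 on the log2 scale. With the length trend removed, which kept 7361 probe sets, they numbered 2072 and 1871. Leaving out 1 sample gave 3424 to 5209 higher and 2516 to 4278 lower calls. Median centring moved the median of all probe sets by 0.24 and the share of higher calls to 67.3%, against 56.2% as reported. Among the members, whose values have no test, the log2 fold change of THE1 was 2.65 with median centring and 2.03 with the length trend removed, against 2.41 as reported. That of AT5G59700 was -1.21 with median centring, -1.03 with a pseudocount of 32 and -1.83 with the length trend removed, against -1.45. Of 15 tested pathway genes, the wider family included, 0 were called higher and 11 lower, against 34.1% and 26.5% over all tested probe sets. Of the 11, 3 had only the sorted mean below the filter bound and so entered the test through their whole-root signal. The lower count is therefore not weighed against the 26.5%. The higher count was 1 with median centring, quantile normalization, a pseudocount of 32, or no mean-variance trend, in each case MRI, and 0 to 1 when 1 sample was left out. The lower count was 5 of the 8 genes still tested with the filter at 60%, and 4 of 15 against a fold change of 1. For RALF genes it was 3 of the 4 still tested with the filter at 60%. It was 3 of 7 RALF genes against a fold change of 1 and 3 of 7 with the length trend removed, against 6 of 7 as reported. Signs turned for RALF34 with the length trend removed (0.088), WAKL14 with median centring (0.0063) and AT5G24010 without sorted replicate 1 (-0.18, the lowest of its values with 1 sample left out; the highest was 0.65); RALF34 and WAKL14 passed in neither setting. With the replicate number as a block, 3801 were higher and 3136 lower, RALF34 gained a call (-0.71) and LRX4 lost its call (-0.69). Between samples with the same number, deviations from the group means were nearly unrelated (r = 0.0057 and 0.0013). With 2 whole-root arrays, whose deviations mirror each other, these values cannot settle whether shared numbers mark pairs. Causes were not tested.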

Other observations

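Since no gene name in RefSeq held both the words receptor and kinase, genes whose names hold the word receptor were looked at afterwards. There were 11, of which 4 were tested, 1 was higher, 2 were lower and 1 did not pass (limma adjusted p under 0.05). Over all tested probe sets, 34.1% were higher and 26.5% lower. ATGLR1.2, 1 of the 2 lower genes, entered the test through its whole-root signal alone, so the lower count is not weighed against that share. PSY1R, a leucine-rich repeat receptor kinase for a growth-promoting peptide, had 261, 145 and 151 units in sorted protoplasts, against 411 and 395 in whole roots. It fell by 1.17 (SE 0.27, limma adjusted p = 0.00618). Of 8 named glutamate receptor-like channels, which carry calcium after wounding, only 3 were tested, and these 3 did not move together. GLR3.3 had 166, 161 and 166 units in sorted protoplasts, against 106 and 122 in whole roots (log2 fold change 0.53, limma adjusted p = 0.0310). ATGLR1.2 had 26.4, 31.8 and 16.2 units in sorted protoplasts, against 121 and 121 in whole roots (-2.34, limma adjusted p = 0.000673), with its sorted signals below the filter bound. GLR3.6 did not pass (-0.50, limma adjusted p = 0.100).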
